A study of Mus musculus with 24 samples.

Results

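The genes described here were 33 components of the lysosome: 5 membrane proteins, 8 proteases, 8 glycosidases, 5 lipid hydrolases or cofactors, 5 subunits of the vacuolar proton pump (V-ATPase), the transcription factor Tfeb and the autophagy adaptor Sqstm1. They were taken by symbol from a list of lysosomal genes that was drawn up with earlier results of these data known, and for each the transcript row with the highest mean level was kept. All 33 passed the filter on low values, among 12648 genes tested and 24453 genes in the table. The cells were vascular smooth muscle cells (VSMCs) grown at low passage from the thoracic aortas of young adult C57BL/6J mice, in DMEM with 10% FBS. Cholesterol cells were given 20 ug/mL of cholesterol complexed to methyl-β-cyclodextrin (Chol:MβCD) for 24 or 48 h in medium with 0.2% BSA, and control cells received BSA at the same concentration without the complex for 0, 24 or 48 h. Cholesterol and its cyclodextrin carrier therefore cannot be told apart. Poly-A RNA was sequenced from 3 libraries in each of the control 0 h, control 24 h, cholesterol 24 h and cholesterol 48 h groups and 2 in the control 48 h group, whose replicate 1 the study discarded. Histone H3 acetylated on lysine 27 (H3K27ac), a mark of active promoters and enhancers, was profiled once in each of the 5 conditions.

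The lysosome is the acidic compartment in which cells break down material taken up by endocytosis or delivered by autophagy. The V-ATPase pumps protons across its membrane, LAMP proteins line that membrane, and soluble hydrolases inside digest proteins, glycans and lipids. Many of these genes carry a palindromic element (the CLEAR element) that TFEB and its relatives bind, and cholesterol delivered to smooth muscle cells in arterial lesions passes through this compartment.

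Levels are given as RPKM, the tags of a gene scaled to the length of its gene body and to the library's tags. Tags are mapped reads, of which at most 1 per position was counted. RPKM was divided by a size factor for each library (0.904 to 1.056). Gene bodies include introns here, so levels are not compared between genes. Fold changes come from a fit on the log2(RPKM + 1) scale. The tags that could be recovered in genes numbered 2726790 to 7590850 per library. They ranged from 6759240 to 7590850 in the 6 libraries of 24 h and from 3633870 to 4968400 in the 5 libraries of 48 h, while the 3 control 0 h libraries spread from 2726790 to 6994360. Each member had between 59 (Gla) and 3579 (Ctsd) tags in a library. Whether replicates came from separate isolations is not stated beyond the name biological triplicates, so the p-values measure the spread between these libraries. In bulk RNA, fewer cells of a type and less RNA per cell cannot be told apart.

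The cells carried contractile markers of their label, at uneven levels. The summed level of 10 contractile smooth muscle genes was 144.1 to 316 RPKM per library. Tagln, Myl9 and Acta2 reached 98.8, 73.9 and 61.3 RPKM in their highest library, while Myh11, Des and Myocd reached 3.81, 0.85 and 0.69. Of 14 macrophage markers, 6 (Fcgr1, C1qa, C1qb, C1qc, Tyrobp and Aif1) were at 0 in all 14 libraries, and the defining genes Ptprc, Adgre1 and Itgam did not exceed 0.0071 RPKM. Others were detected, with Cd14, Lyz2, Mertk and Csf1r reaching 3.09, 1.625, 1.21 and 0.56 RPKM in their highest library. Endothelial markers summed to at most 0.877 RPKM, whereas the fibroblast list (70.3 to 166 RPKM) consisted mostly of the collagen gene Col1a1 (68.1 to 164.7 RPKM), which smooth muscle cells also express. The macrophage list summed to 7.6 and 7.84 RPKM in the control 48 h libraries and to 9.41 to 9.81 in the cholesterol 48 h libraries. In these, Cd68, itself a lysosomal membrane protein, had a mean of 5.03 RPKM. It had only 10 to 48 tags in a library. Of 5 macrophage markers tested, 2 (Cd68 and Csf1r) were higher with cholesterol at 48 h and 1 lower (limma, adjusted p under 0.05). Over all genes it was 11.9% and 12.9%. The part of the list in the lysosomal results was not tested.

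**Figure D1:**
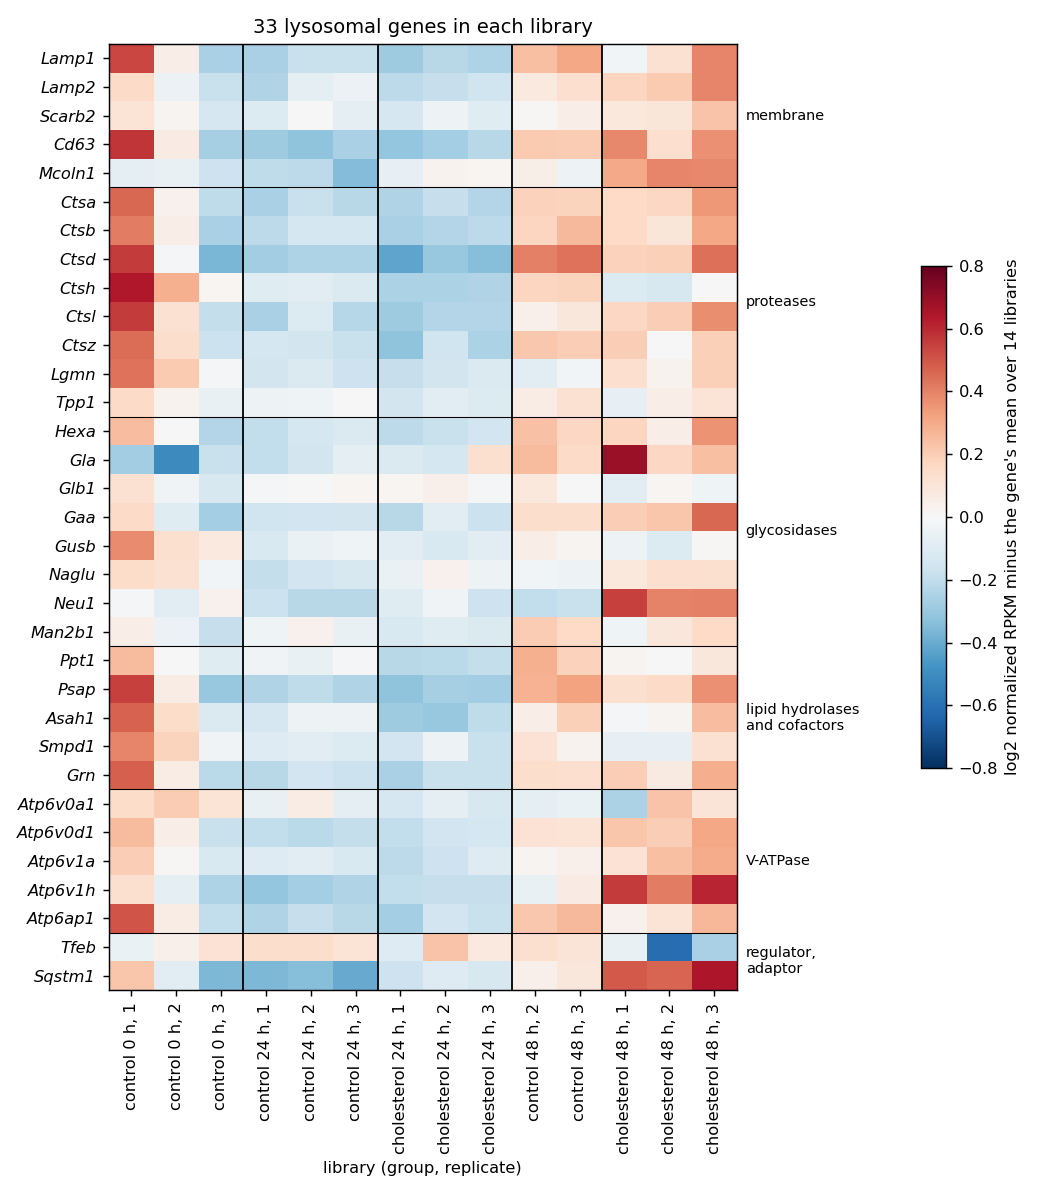
Each row is 1 of the 33 genes, grouped by role, and each column 1 of the 14 RNA libraries; the colour gives the log2 of the normalized RPKM minus the gene's mean over all libraries, from -0.8 (blue) to 0.8 (red). Control 0 h replicate 1 has the highest of the 3 control 0 h values in 28 rows, and Neu1, Atp6v1h, Mcoln1 and Sqstm1 are red in all 3 cholesterol 48 h libraries. So are other rows, among them Lamp2, Gaa, Atp6v0d1 and Atp6v1a, which were not called in the main fit. The median over the rows is 0.12 to 0.29 in these libraries and 0.117 and 0.135 in control 48 h.

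Promoter sequences are shown for the members that hold the extended CLEAR motif, because TFEB and its relatives bind this element in lysosomal genes. RefSeq promoters (GRCm38.p6, the assembly of mm10, from 250 bases before to 50 after the start) matched 29 of the 33 members within 1000 bases of the start used, and 9410 of the genes tested. Ctsb, Ctsh, Asah1 and Atp6v1h were not matched. The E-box CACGTG, which reads the same on both strands, lay in 11 of the 29 promoters against 10.2% of all those matched. The longer GTCACGTG, which contains the E-box and was sought on both strands, lay in 8 of 29 against 4.35%. One such window is shown for each gene, and both for Mcoln1. In these windows, written 5′ to 3′ on the strand of the gene, capitals mark GTCACGTG or its reverse complement CACGTGAC:
Lamp1, chr8:13159122-13159151, + strand: atgccgactggCACGTGACcacatcacgtg
Mcoln1, chr8:3500435-3500464, + strand: gggtcgcgcttGTCACGTGttcagttcagg
Mcoln1, chr8:3500463-3500492, + strand: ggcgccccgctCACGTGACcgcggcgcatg
Ctsa, chr2:164833748-164833777, + strand: atgagcaaactGTCACGTGatgcagatgct
Ctsd, chr7:142387907-142387936, - strand: cgcccgcgtctCACGTGACccgttgagggc
Gla, chrX:134601183-134601212, - strand: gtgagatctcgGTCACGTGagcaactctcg
Glb1, chr9:114401017-114401046, + strand: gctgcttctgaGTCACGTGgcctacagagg
Naglu, chr11:101070008-101070037, + strand: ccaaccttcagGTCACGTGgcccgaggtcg
Atp6v0d1, chr8:105566051-105566080, - strand: gccctactgcgGTCACGTGagacgcggtgc
Lamp1 held 4 copies of the E-box within the window searched, and Ctsl, Gaa and Atp6v1a held the E-box without the longer form. Both Mcoln1 copies lay upstream of the start, 73 and 45 bases before it. A composite C/EBP-ATF motif, TGATGNAA, was found in Ctsl, Smpd1 and Atp6v0d1 (3 of 29 against 2.14% of promoters), and the antioxidant response motif TGACNNNGC in 8 of 29 against 14.5%. None of these 4 motifs was found in the windows of Neu1, Sqstm1 or Tfeb. The Tfeb window lay near the start of the row kept, which had no H3K27ac region within 1 kb in any list. Its other, upstream starts were not searched. These matches describe the letters in the window and not binding.

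Cholesterol loading for 24 h changed 1 of the 33 genes. Mcoln1, which encodes the lysosomal cation channel TRPML1, rose 1.19-fold, and no member fell (limma with Benjamini-Hochberg adjustment over 12648 genes, adjusted p under 0.05). Among all genes tested, 2.48% were higher and 2.96% lower by the same rule, so the 1 and 0 of 33 members were near or below that background. At an unadjusted p under 0.05 by limma, in either direction, there were 3 of the 33 members and 2282 of the 12648 genes. Over the members the log2 fold change had a median of -0.025 (-0.003 over all genes), with 10 members above 0 and 23 below. By another measure, the cholesterol libraries lay wholly above the control libraries for 5 members (Mcoln1, Naglu, Neu1, Atp6v1h and Sqstm1; 17.9% of all genes) and wholly below them for 8 (Ctsb, Ctsd, Ctsh, Tpp1, Man2b1, Ppt1, Psap and Asah1; 21.2% of all genes).

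At 48 h the same comparison gave 4 higher members, Neu1, Sqstm1, Atp6v1h and Mcoln1, and 1 lower, Tfeb (limma with Benjamini-Hochberg adjustment, adjusted p under 0.05). The background was 11.9% higher and 12.9% lower over all genes, near the 4 of 33 that were higher, and the 1 of 33 lower was below it. Over the members the log2 fold change had a median of 0.04, with 17 values above 0 and 16 below, and over all genes it was -0.002. The other 28 genes, among them Lamp1, Lamp2 and all 8 proteases, were not called at either time. Groups did not overlap for 12 members that were higher with cholesterol (21.7% of all genes) and for 6 that were lower (23.8% of all genes). The 12 were the 4 called and Lamp2, Scarb2, Ctsl, Lgmn, Gaa, Naglu, Atp6v0d1 and Atp6v1a, and the 6 were Tfeb, Ctsh, Ctsz, Gusb, Man2b1 and Ppt1.

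**Figure D2:**
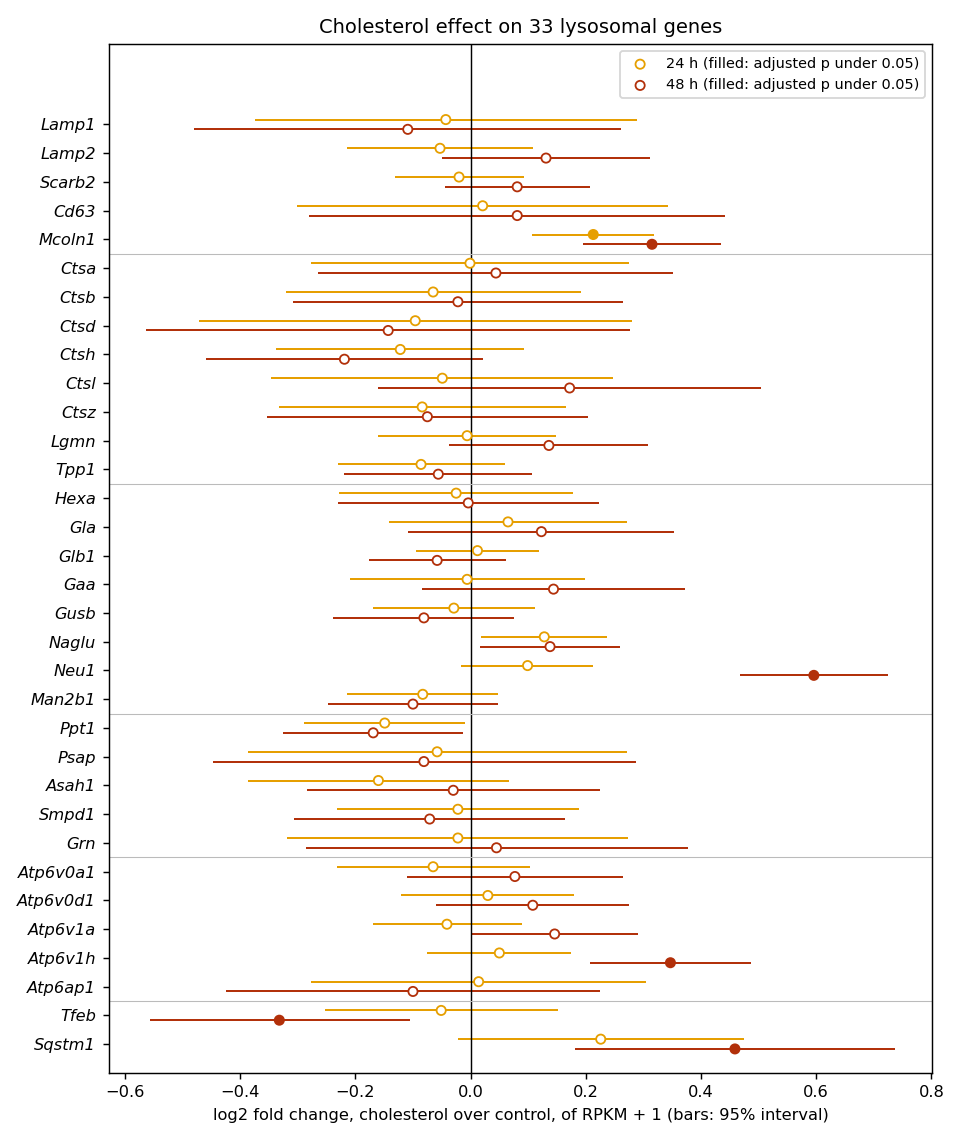
The log2 fold change of RPKM + 1, cholesterol over control, is plotted for the 33 genes at 24 h (orange) and 48 h (red), with bars for the 95% interval of the limma fit and filled points for an adjusted p under 0.05. Only Mcoln1 is filled at 24 h, and Neu1 has the largest value at 48 h, 0.60.

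Among the 5 membrane proteins, Mcoln1 (NM_053177, chr8:3500519-3515231) was the one that changed. It was at 6.12, 6.085 and 5.52 RPKM in the control 24 h libraries and at 6.72, 7.19 and 7.11 with cholesterol for 24 h. At 48 h it was at 7.27 and 6.84 in control and at 8.66, 9.21 and 9.19 with cholesterol. Every cholesterol library was above every control library of its time. The log2 fold change was 0.21 ± 0.05 (SE) at 24 h (limma, Benjamini-Hochberg adjusted p = 0.0259) and 0.32 ± 0.05 at 48 h (adjusted p = 0.00128 by limma). The 24 h call was lost when control 24 h replicate 2 or 3, or cholesterol 24 h replicate 2 or 3, was left out (adjusted p by limma 0.0619, 0.119, 0.112 and 0.102), while the value stayed between 0.17 and 0.25 over all 26 alternatives. The effects at the 2 times differed by 0.10 on the log2 scale, with a 95% interval of -0.06 to 0.26.

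Lamp1 and Lamp2, the most abundant proteins of the lysosomal membrane, did not pass the test. Lamp1 (NM_010684, chr8:13159135-13175338) was at 19.2, 20.4 and 20.4 RPKM in control 24 h libraries and at 18.95, 19.7 and 19.5 with cholesterol. At 48 h it was at 27.2 and 28.6 in control and at 22.7, 25.1 and 30.2 with cholesterol, so the groups overlapped at both times. The intervals of its log2 fold change were -0.38 to 0.29 at 24 h and -0.48 to 0.26 at 48 h. For Lamp2 (NM_010685, chrX:38419503-38456460) the control 48 h libraries were at 7.01 and 7.29 RPKM and the cholesterol 48 h libraries at 7.47, 7.66 and 8.69. These did not overlap, but the log2 fold change of 0.13 (95% interval -0.05 to 0.31) had an adjusted p of 0.286 by limma. At 24 h Lamp2 overlapped, with 5.62, 6.27 and 6.43 RPKM in control and 5.75, 5.83 and 5.95 with cholesterol. Scarb2, the receptor that carries β-glucocerebrosidase to the lysosome, and Cd63, a tetraspanin of late endosomes, had log2 fold changes at 48 h of 0.08 each, with intervals of -0.05 to 0.21 and -0.28 to 0.44.

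None of the 8 proteases was called with cholesterol at either time. All 8 had a negative value at 24 h, from -0.12 (Ctsh) to -0.001 (Ctsa, the carboxypeptidase that also protects NEU1 and GLB1), and at 48 h 3 were positive and 5 negative. Cathepsin H (Ctsh) had the lowest value at both times. Its control libraries were at 5.62, 5.65 and 5.55 RPKM at 24 h and its cholesterol libraries at 5.05, 5.055 and 5.1, and at 48 h these were 6.765 and 6.805 against 5.57, 5.51 and 6. The cholesterol libraries were lower throughout, with a log2 fold change at 48 h of -0.22 (95% interval -0.46 to 0.02, adjusted p = 0.18 by limma). Cathepsin L (Ctsl) lay on the other side at 48 h, at 24.75 and 25.65 RPKM in control and 27, 27.6 and 31.1 with cholesterol, with a log2 fold change of 0.17 (-0.16 to 0.50). Cathepsin D (Ctsd), an aspartic protease, was at 63.2 and 64.4 in control 48 h and at 54.3, 54.5 and 64.9 with cholesterol, and those groups overlapped. For the cysteine cathepsins Ctsb and Ctsz and for Tpp1, a tripeptidyl peptidase, the 48 h values were -0.02, -0.075 and -0.06. Lgmn, the asparaginyl endopeptidase that processes cathepsins, had a value of 0.14 (-0.04 to 0.31).

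Of the 8 glycosidases 1 changed. Neu1 (NM_010893, chr17:34931253-34937297), the sialidase that removes terminal sialic acids from glycans, was at 11.2, 10.8 and 10.8 RPKM in control 24 h libraries and at 11 and 11.15 in control 48 h libraries, and at 12.5, 11.9 and 12.9 at 0 h. With cholesterol it was at 11.8, 12.4 and 11.3 RPKM at 24 h and at 18.5, 16.6 and 16.7 at 48 h. The 3 cholesterol 48 h libraries were above all 11 others. At 24 h its cholesterol libraries were also above the controls, by a log2 fold change of 0.10 ± 0.05 that did not pass (adjusted p = 0.367 by limma). At 48 h the log2 fold change was 0.60 ± 0.06 (1.56-fold, limma with Benjamini-Hochberg adjustment, adjusted p = 2.35e-05).

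Neu1 was also the 1 member whose cholesterol effect differed between the times. The effect was larger at 48 h than at 24 h by 0.50 ± 0.08 on the log2 scale (adjusted p = 0.00375 for the interaction in limma), where 2.29% of all genes had a larger and 3.08% a smaller effect at 48 h. No member had a smaller effect. Atp6v1h had the next largest difference, 0.30 (95% interval 0.11 to 0.48), with an adjusted p of 0.072 by limma. It was called as well, making 2 members, when control 0 h replicate 1 or 3 or cholesterol 48 h replicate 2 was left out, and Atp6v0a1 was when cholesterol 48 h replicate 1 was. Both Neu1 results held their call in all 26 alternatives.

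The other 7 glycosidases were not called with cholesterol. Naglu, which degrades heparan sulfate, was at 13.5, 13.9 and 14.1 RPKM in control 24 h libraries and at 14.8, 15.8 and 15 with cholesterol. At 48 h it was at 15.2 and 15 in control and 16.3, 16.9 and 16.8 with cholesterol. The groups did not overlap at either time, and the log2 fold changes of 0.13 and 0.14 had adjusted p-values of 0.188 and 0.0943 by limma. Gaa, the acid α-glucosidase that digests glycogen, had a value at 48 h of 0.14 (-0.08 to 0.37), and Gla, the α-galactosidase lacking in Fabry disease, 0.12 (-0.11 to 0.35). Hexa, Glb1, Gusb and Man2b1, which act on gangliosides, β-galactosides, glucuronides and mannose-rich glycans, lay between -0.10 and -0.004 at 48 h. Glb1 shares its gene body with Tmppe on the same strand, so tags of the 2 genes could be counted together.

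No lipid hydrolase or cofactor was called with cholesterol. All 5 were below 0 at 24 h and 4 of 5 at 48 h. Ppt1, the thioesterase that removes palmitate from proteins, was at 6.03, 5.92 and 6.09 RPKM in control 24 h and at 5.27, 5.29 and 5.4 with cholesterol. At 48 h the libraries were at 7.49 and 6.99 in control and at 6.25, 6.17 and 6.55 with cholesterol. These groups did not overlap, and the log2 fold changes were -0.15 (adjusted p = 0.238 by limma) and -0.17 (adjusted p = 0.108 by limma). Asah1, the acid ceramidase, had its cholesterol 24 h libraries (5.1, 5.04 and 5.4) below the controls (5.66, 6.03 and 6.03), with a value of -0.16 (-0.39 to 0.07), and overlapped at 48 h. Smpd1, the acid sphingomyelinase, had 48 h values of 38.1 and 35.8 RPKM in control and 33.6, 33.6 and 38.3 with cholesterol, and these overlapped. Psap, the precursor of the saposins that present sphingolipids to their hydrolases, and Grn, the precursor of the granulins, had log2 fold changes at 48 h of -0.08 (-0.45 to 0.29) and 0.05 (-0.29 to 0.38).

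Of the 5 V-ATPase genes, Atp6v1h (NM_001310442, chr1:5083086-5162549) was higher with cholesterol. It encodes the H subunit of the cytosolic V1 sector, which hydrolyses ATP. Its level was 1.34, 1.37 and 1.4 RPKM in control 24 h libraries and 1.45, 1.46 and 1.46 with cholesterol. At 48 h it was 1.59 and 1.74 RPKM in control and 2.45, 2.2 and 2.53 with cholesterol, 1.44-fold higher without overlap. The log2 fold change was 0.35 ± 0.06 at 48 h (limma with Benjamini-Hochberg adjustment, adjusted p = 0.0019) and 0.05 ± 0.06 at 24 h (adjusted p = 0.74 by limma). The 48 h call held in all 26 alternatives, with values of 0.31 to 0.53.

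The other V1 gene, Atp6v1a, which encodes the catalytic A subunit, was at 3.46 and 3.51 RPKM in control 48 h and at 3.69, 4.03 and 4.18 with cholesterol (log2 fold change 0.15, 95% interval 0.002 to 0.29, adjusted p = 0.134 by limma). Among the membrane-bound V0 genes, Atp6v0d1 was at 4.5 and 4.48 RPKM in control 48 h and at 4.83, 4.76 and 5.15 with cholesterol, with a log2 fold change of 0.11 (-0.06 to 0.27). Atp6v0a1 and the accessory subunit Atp6ap1 overlapped between the groups at 48 h, with values of 0.08 (-0.11 to 0.26) and -0.10 (-0.42 to 0.23).

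Sqstm1 (NM_011018, chr11:50200152-50210820) encodes p62, which ties ubiquitinated cargo to autophagosomes and is itself degraded in the lysosome. It was at 28.1, 28.5 and 27.3 RPKM in control 24 h and at 32.1, 33.5 and 32.9 with cholesterol. At 48 h it was at 37 and 38.35 in control and at 50.5, 49.8 and 56.5 with cholesterol. Both comparisons were without overlap, and the 48 h change was 1.39-fold. The log2 fold change was 0.46 ± 0.13 at 48 h (limma with Benjamini-Hochberg adjustment, adjusted p = 0.0197) and 0.23 ± 0.11 at 24 h (adjusted p = 0.333 by limma). Leaving out control 48 h replicate 2 or 3, or cholesterol 48 h replicate 3, ended the 48 h call (adjusted p by limma 0.107, 0.0781 and 0.0599).

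Tfeb (NM_011549, chr17:47785744-47792416), the factor that drives lysosomal genes when it enters the nucleus, was the member that fell at 48 h. It was at 4.42 and 4.34 RPKM in control 48 h and at 3.88, 2.65 and 3.38 with cholesterol, and at 4.465, 4.465 and 4.36 in control 24 h against 3.76, 4.73 and 4.27. The groups overlapped at 24 h and not at 48 h, where cholesterol replicate 2 was the lowest. The log2 fold change at 48 h was -0.33 ± 0.10 (limma with Benjamini-Hochberg adjustment, adjusted p = 0.0348). It rested on 64 to 233 tags per library, and the call was lost in 9 of 26 alternatives (adjusted p up to 0.167). The log2 fold change ran from -0.43 to -0.12 over them, and the value of -0.12, which was still called, came from the longest row of the gene. Leaving out control 48 h replicate 2 or 3 or cholesterol 48 h replicate 2 or 3 gave log2 fold changes of -0.32, -0.34, -0.22 and -0.35 (adjusted p by limma 0.14, 0.12, 0.0804 and 0.0532). The row counts the last part of the gene only, since the table lists 2 further, upstream starts for Tfeb.

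**Figure D3:**
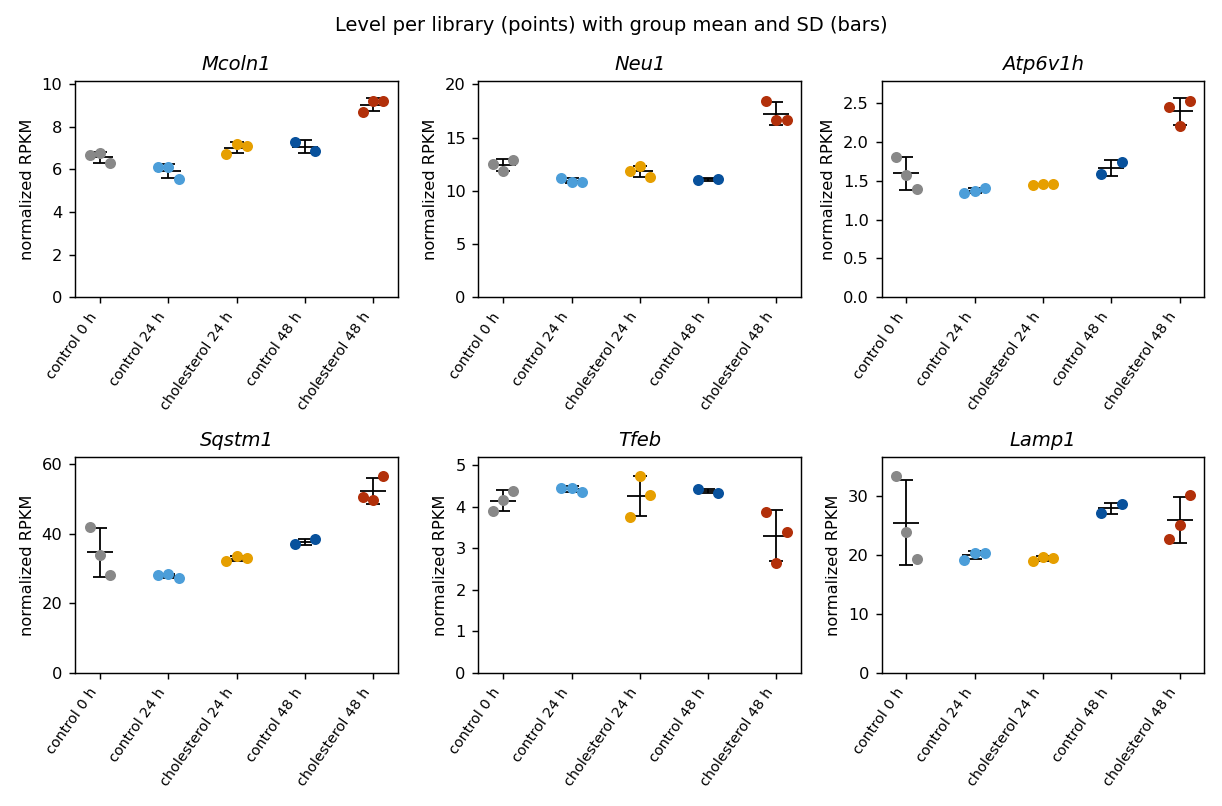
Normalized RPKM of Mcoln1, Neu1, Atp6v1h, Sqstm1, Tfeb and Lamp1 in each library (points) with the group mean and SD (bars), in 5 groups; each axis starts at 0. The 3 cholesterol 48 h points lie above both control 48 h points for the first 4 genes and below them for Tfeb, and Lamp1 overlaps.

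In control medium, 4 members were lower at 24 h than at 0 h, Ctsh, Lgmn, Gusb and Naglu, and none was higher (limma with Benjamini-Hochberg adjustment; 3.7% of all genes were lower and 4.46% higher). Of the 33 values 29 were negative, and the log2 fold change had a median of -0.21 (0.001 over all genes). At 48 h against 0 h, Gla and Man2b1 were higher and none was lower (7.68% and 8.05% of all genes), with 24 positive values and a median of 0.06. Gla was at 1.865, 1.59 and 2 RPKM at 0 h and at 2.7 and 2.51 at 48 h (log2 fold change 0.36 ± 0.11, adjusted p = 0.0401 by limma), and the groups did not overlap. Man2b1 was at 12.2, 11.4 and 10.35 RPKM at 0 h and at 13.5 and 13.1 at 48 h (0.22 ± 0.07, adjusted p = 0.0463 by limma), again without overlap. Ctsh was at 9.37, 7.34 and 6.08 RPKM at 0 h and at 5.62, 5.65 and 5.55 at 24 h (-0.36 ± 0.10, adjusted p = 0.0442 by limma). Naglu was at 17.1, 16.8 and 15.2 RPKM at 0 h and at 13.5, 13.9 and 14.1 at 24 h (-0.22 ± 0.05, adjusted p = 0.0177 by limma). Lgmn and Gusb had values of -0.27 ± 0.07 and -0.24 ± 0.06 (adjusted p = 0.0368 and 0.0401 by limma). For these 4 genes every 24 h library was below every 0 h library. The same held for Mcoln1, Neu1, Smpd1, Atp6v0a1 and Atp6v0d1, which were not called. At 48 h Mcoln1 also lay wholly above 0 h, and Lgmn, Gusb, Naglu, Neu1 and Atp6v0a1 wholly below it. The share of all genes without overlap was not counted for the comparisons with 0 h. These comparisons share the control libraries of 24 and 48 h with the cholesterol comparisons. Each of the 6 calls was lost in 8 to 18 of 26 alternatives. Over these the log2 fold change ran from -0.49 to -0.11 for Ctsh, from -0.36 to -0.11 for Lgmn, from -0.30 to -0.11 for Gusb and from -0.27 to -0.11 for Naglu, where the value nearest 0 came with the log2 of total tags as a covariate, or for Naglu with quantile normalization. It ran from 0.29 to 0.51 for Gla and from 0.16 to 0.27 for Man2b1.

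The time comparisons rested on the control 0 h libraries, which differed in depth. The study kept replicate 1 of this group in its expression table but set it aside in a comparison with other datasets, since it did not group with the other replicates. Control 0 h replicate 1, with 2726790 tags, had the highest level of the 3 for 28 of the 33 genes, and replicate 3, with 6994360 tags, the lowest for 30. The ratio between them had a median of 1.34 over the members (0.888 for Tfeb to 1.89 for Ctsd) and of 0.983 over all genes tested. Members with more tags per kilobase of exon had larger ratios. The median was 1.54 in the 11 densest and 1.12 in the 11 sparsest (Spearman's rho 0.75 over 33 genes of the same 2 libraries, given as a description). The deposited values count at most 1 tag per position, and whether this limit has a part in the pattern was not tested.

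**Figure D4:**
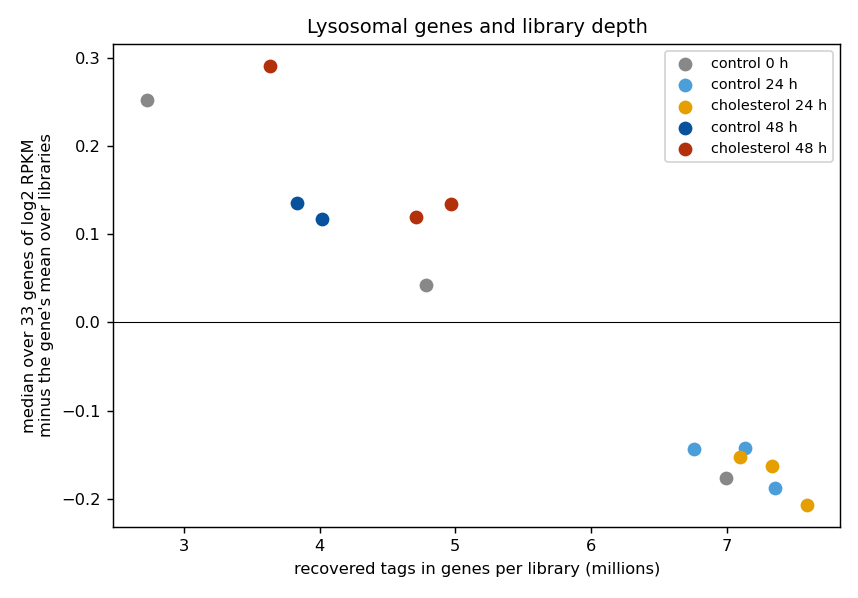
For each of the 14 RNA libraries, the median over the 33 genes of log2 normalized RPKM minus the gene's mean over all libraries is plotted against the recovered tags in genes, coloured by group. Libraries of 24 h sit at 6759240 to 7590850 tags with medians of -0.21 to -0.14, and the shallowest library, control 0 h replicate 1, is at 0.25.

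Without control 0 h replicate 3, 19 members were lower at 24 h than at 0 h, without replicate 1 it was 1, Naglu, and without replicate 2 or any one control 24 h library it was 0. At 48 h against 0 h, 8 members were higher without control 0 h replicate 1, and 0 without replicate 2 or any one library of the control 24 h or control 48 h groups. The share of all genes in these refits is not given here, so the counts are not read as particular to the members. Control 0 h replicate 3 lay within the depth range of the control 24 h libraries. With the log2 of total tags as a covariate, an alternative chosen after seeing the data, no member was lower at 24 h than at 0 h, and the log2 fold changes were -0.11 for Ctsh, Lgmn and Gusb and -0.155 for Naglu (adjusted p by limma 0.173, 0.258, 0.261 and 0.0904). The cholesterol and control libraries of 24 h overlapped in depth (6759240 to 7351800 tags in control, 7094030 to 7590850 with cholesterol). At 48 h control libraries had 3836770 and 4020100 tags, and cholesterol libraries 4968400, 4707660 and 3633870, of which replicate 3, the shallowest, had the highest level for 24 of the 33 genes.

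The spread of the 0 h libraries also entered the error of the cholesterol comparisons, since the fit shared 1 estimate of the spread over the 5 groups. The median 95% interval of a member at 24 h reached 0.20 log2 units on either side, against 0.13 over all genes. The log2(RPKM + 1) scale narrows the intervals of low genes, and its part in this difference was not tested. Without control 0 h replicate 1, 3 members were lower with cholesterol at 48 h (Ctsh, Ppt1 and Tfeb) and 1 at 24 h (Ppt1), and without control 0 h replicate 3 it was 2 at 48 h (Ctsh and Tfeb). For these refits too, the share of all genes is not given here. With the 24 h libraries fitted alone, Mcoln1, Naglu and Sqstm1 were higher and Asah1, Ctsh and Ppt1 lower (7.67% and 9.11% of all genes). With the covariate for total tags, 12 members were higher at 48 h (14.1% of all genes) and 3 lower (15.5% of all genes). The 12 were the 4 called without it and Lamp2, Ctsa, Ctsl, Lgmn, Gaa, Naglu, Atp6v0d1 and Atp6v1a, and the 3 were Tfeb, Ctsh and Ppt1.

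Other genes of the lysosome, from lists by role, were counted in the same fit, and the counts at 48 h can be read beside the 11.9% higher and 12.9% lower over all genes. Among 28 further lysosomal membrane proteins, 14 were higher at 48 h with cholesterol and none lower, and the median of all 28 log2 fold changes was 0.17. The 3 largest were Cd68, a LAMP family member (a mean of 2.29 RPKM in control 48 h and 5.03 with cholesterol, log2 fold change 0.87 ± 0.13, adjusted p = 0.000491 by limma), Ctns, which exports cystine (2.37 and 3.98 RPKM, 0.56 ± 0.07), and Slc11a2, a metal transporter of endosomes (2.11 and 3.45 RPKM, 0.51 ± 0.05). The Cd68 values rested on only 10 to 48 tags per library. These 3 were also the ones higher at 24 h, where leaving out any one of the 24 h libraries left 1 or 0 and leaving out cholesterol 48 h replicate 1 gave 5. Of 39 further hydrolases and cofactors, 7 were higher and 6 lower at 48 h. The largest values were those of the collagen-degrading protease Ctsk (0.46 ± 0.08) and of Hyal1, which cleaves hyaluronan (-0.42 ± 0.14). Of 14 further V-ATPase subunits, 4 were higher and none lower, led by Atp6v1b2 (0.38 ± 0.05) and Atp6v1g1 (0.33 ± 0.07) of the V1 sector. Without control 48 h replicate 2 the higher hydrolases numbered 4 and the higher V-ATPase subunits 1, without cholesterol 48 h replicate 3 the latter were 2, and the lower hydrolases were 3 without any one of 7 libraries (both control 48 h, all cholesterol 24 h, and control 24 h replicates 2 and 3).

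Among 24 genes of the MiT/TFE factors and of mTORC1 at the lysosome, 7 were higher at 48 h and 1 lower. Rragd, a Rag GTPase, had the largest value (0.57 ± 0.06), followed by Flcn (0.41 ± 0.07), which acts on the Rag GTPases, and Tsc1 (0.30 ± 0.07). Of 40 autophagy genes 4 were higher, with Atg16l2 (0.47 ± 0.12), the cargo receptor Optn (0.41 ± 0.05) and Atg13 (0.38 ± 0.06) the largest. Of 20 genes that tag, carry or sort hydrolases, by mannose 6-phosphate or otherwise, 3 were higher and 2 lower. Among them were Cln8 (0.39 ± 0.04), which carries newly made hydrolases from the endoplasmic reticulum, and the sorting receptor Sort1 (-0.34 ± 0.06). Without control 48 h replicate 2 the MiT/TFE list had 4 higher genes and 2 lower, and leaving out cholesterol 48 h replicate 2 also gave 2 lower, whereas leaving out control 48 h replicate 3 gave 0. Without cholesterol 48 h replicate 1 the autophagy list had 9 higher and the sorting list 5, and without control 48 h replicate 3 the autophagy list had 2. In the same libraries 4 of 10 contractile genes were lower with cholesterol at 48 h and 1 was higher.

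H3K27ac regions lay within 1 kb of the start site in all 5 lists for 26 of the 33 genes, where 67.4% of all genes tested had one in all 5. With a fold over input of at least 8 it was 4 members (10.7% of all genes), and with the centre of the region inside the window 17 (49.2% of all genes). There was 1 library per condition, so no test was made. Lamp2, Ctsz, Gla and Neu1 had a region in every list but that of 0 h, and Gaa in every list but that of control 48 h. Psap and Tfeb had none at the start of the row kept, but both had one in all 5 lists at another start listed for the gene. At Tfeb the fold over input at any listed start was 8.72 at 0 h, 14.8 in control 24 h, 9.19 with cholesterol 24 h, 8.13 in control 48 h and 7.91 with cholesterol 48 h.

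Near the start of the members called with cholesterol, the fold over input was higher with cholesterol in some pairs of lists and lower in others. At Neu1 it was 5.52 in control 24 h, 4.94 with cholesterol 24 h, 4.06 in control 48 h and 4.29 with cholesterol 48 h. At Mcoln1 the folds were 11 and 8.96 at 24 h and 6.07 and 5.88 at 48 h, in the order control and cholesterol. At Atp6v1h they were 9.53 and 8.48, then 7.05 and 4.7, and at Sqstm1 11.9 and 16.1, then 12.8 and 12.1. Over the 30 members with a region in both 48 h lists, 7 had a higher fold over input with cholesterol and 23 a lower one, with a median ratio of 0.893. At 24 h it was 10 higher and 21 lower of 31, with a median ratio of 0.927. The same split was not counted over all genes, so these counts are not read as particular to the members. Among the members with a region, the median fold over input was 9.08 in control 24 h and 8.47 with cholesterol 24 h, and over all genes it was 7.82 and 7.77. At 48 h these medians were 7.72 and 6.89 for the members and 7.34 and 6.68 for all genes. The list of 0 h stood apart, with 16.9% of its tags in regions against 37.4% to 43.8% in the other 4 and a median fold over input of 14.7 against 5.54 to 5.97, so its folds cannot be read beside theirs.

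**Figure D5:**
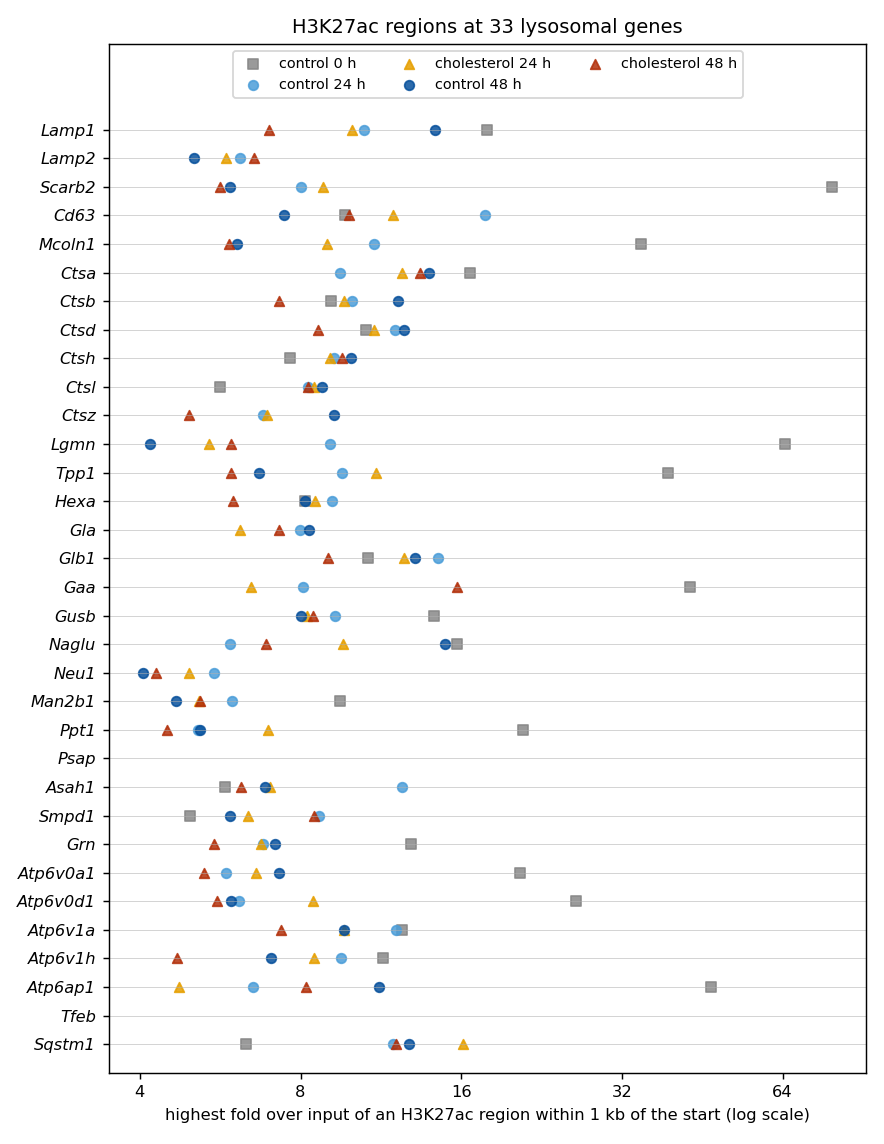
For each of the 33 genes, points give the highest fold over input (log axis) of an H3K27ac region within 1 kb of the start, in the 5 lists of 1 library each. Psap and Tfeb have no point at the start used, Neu1 has 4 between 4.06 and 5.52, and the grey squares of control 0 h reach 79.2 at Scarb2.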

How the data were processed

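The authors mapped RNA reads to mm10 with STAR, counted tags in RefSeq gene bodies with HOMER (at most 1 tag per position) and deposited RPKM (headed FPKM) per transcript row. For the row of highest mean per gene, RPKM was divided by median-of-ratios size factors, and whole tags were recovered from the RPKM steps (100% of low values whole within 0.25 tag). Genes with over 70 estimated reads in a library were kept. These reads were estimated from RPKM and the mapped reads the study lists, so they exceed the recovered tags. With over 70 recovered tags, 10763 genes would be kept. limma 3.58.1 (R 4.3.3) was fitted to log2(RPKM + 1) over 5 groups, with a trend and Benjamini-Hochberg adjustment across 12648 genes. Fold changes on this scale understate those of low genes. The step was tested on simulated data. The study's DESeq2 model on read counts was not used here.

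H3K27ac regions were called by the authors with HOMER per library against its input (fold ratio of at least 4), and the deposited lists give a normalized tag signal and the fold over input as a ratio. Overlap of at least 1 base within 1 kb of the start counted.

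Members and lists were chosen with earlier results of these data known. Full values were given for members called with cholesterol, for Lamp1, Lamp2, Tfeb, Mcoln1 and Sqstm1, and, chosen after their values were seen, for other members with groups apart. For each other list, up to 3 called genes with the largest change and a mean of at least 1 RPKM were named. Whether counting used strand is not given in the sources used here, and Ctsa, Ctsb, Ctsz and Ppt1 overlap a gene on the other strand (Pltp, Fdft1, Nelfcd and Cap1). Control 48 h replicate 1 and the input libraries were not analysed here. Replicate numbers were not used to pair the libraries in the main fit.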

Additional observations from a re-analysis of the deposited data

Results flagged for a closer look

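The cholesterol effect on Neu1 differed between the times, by 0.50 on the log2 scale, larger at 48 h than at 24 h (interaction term in limma, adjusted p = 0.00375). The 3 cholesterol 48 h libraries, at 16.6 to 18.5 RPKM, were above the 11 others, at 10.8 to 12.9. With groups of 2 or 3 libraries, no group was large enough for a check on single outlying libraries.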

How the results depend on the processing

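Of 26 alternatives (12 settings with all libraries, 14 with 1 library left out), none turned the direction of a called member. The calls of Neu1, Atp6v1h and Mcoln1 at 48 h and the Neu1 difference held in all 26. With cholesterol at 24 h, 1 member was higher, and 2 with quantile normalization, 3 with array weights, 3 with only the groups compared, 3 with log2 total tags as a covariate (chosen after seeing the data) and 0 to 1 with a library left out. None was lower, and 1 with array weights, 3 with only the groups compared, 1 with the covariate and 0 to 1 with a library left out. At 48 h, 4 were higher, and 12 with the covariate and 3 to 5 with a library left out. At 48 h 1 was lower, and 2 with quantile normalization, 3 with the covariate, 0 without the filter, 0 with RPKM as deposited, 0 with voom weights, 0 with only the groups compared and 0 to 3 with a library left out. The effect was larger at 48 h for 1, and for 2 with RPKM as deposited, 3 with array weights, 2 with voom, 2 with only the groups compared, 5 with the covariate and 1 to 2 with a library left out.

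Against 0 h, 4 were lower in control medium at 24 h, and 9 with voom, 1 without the filter, 0 with array weights, 0 with only the groups compared, 0 with the covariate and 0 to 19 with a library left out. At 48 h 2 were higher, and 1 with a pseudocount of 0.1, 1 with RPKM as deposited, 0 without the filter, 0 with array weights, 0 with only the groups compared and 0 to 8 with a library left out. None was lower, and 1 with RPKM as deposited, 1 with voom, 6 with the covariate and 0 to 2 with a library left out. The cause was not tested. In this section shares of all genes are given neither for the settings with all libraries nor for those with a library left out. The counts are therefore not read as particular to the members. H3K27ac regions in all 5 lists fell from 26 to 4 members at a fold of at least 8 and to 17 with the region centre inside the window. In the other lists, 238 of 288 counts stayed within 1.5 times.

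With a replicate block, Tfeb lost its call (-0.33, adjusted p = 0.0674 by limma), so 0 members were lower at 48 h with cholesterol, 1 (Naglu) was lower at 24 h than at 0 h and 1 (Gla) higher at 48 h than at 0 h. Over 26 same-number pairs of libraries, the deviations from the group means had correlations of -0.281 to 0.127. With so few libraries per group, the deviations within a group depend on each other, and those of the control 48 h libraries mirror each other. These correlations therefore cannot decide whether the numbers pair the libraries. Depth limits the genes with few tags, such as Gla and Tfeb and, in the other lists, Cd68.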
